A study of Rattus norvegicus with 27 samples.

Results

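A module of 114 genes, out of 14217 named genes on the array, was selected on its levels in laser-captured acinar cells of the developing rat parotid: each member stood higher from postnatal day 2 to day 9 than both before and after. The choice was made by the values themselves. Each gene was read from its brightest probe set, the one with the highest mean over all arrays, and kept where the mean of the P2, P5 and P9 arrays lay at least 1 log2 unit above the mean of E18, E20 and P0 and also above the mean of P15, P20 and P25. In all, 137 genes met both differences. Of these, 23 were set aside by name or family, among them the mucin gene Smgc, hair keratins and trichohyalin, several adipocyte genes and solute carriers. The smaller of the 2 differences is called the rise below. It chose the members, so rises are described and not tested.

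The 27 arrays held acini of untreated Sprague Dawley rats, 3 arrays at each of 9 ages: before birth at E18 and E20, at birth (P0), in the window at P2, P5 and P9, and later at P15, P20 and P25. The 3 arrays of an age came from separate litters, according to the methods of the study. Acini up to P5 were cut from sections of whole heads and those from P9 onward from dissected glands. The deposited values were log2 RMA levels, that is, background-corrected and normalised probe set signals.

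Acinar cells of the parotid secrete amylase and other proteins into watery saliva, and they mature over the weeks after birth. The tissue around the neonatal gland holds fat, facial muscle, the overlying skin with its growing hair follicles, and other exocrine glands. Keratinocytes of the skin surface build a cornified envelope from small proline-rich proteins and hold together by desmosomes. Adipocytes store triglyceride in droplets coated by proteins of the perilipin and CIDE families, and brown adipocytes burn fat through an uncoupling protein. In captured tissue, a lower level from fewer cells of a type cannot be told apart from less RNA per cell.

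Defining markers of the parotid acinus were present. The 13 measured acinar markers averaged 4.64 to 6.44 log2 units in arrays from E18 to P0, 8.03 to 9.24 from P2 to P9 and 10.36 to 13.02 from P15 to P25. None of the 13 was a member. Markers of other tissues were also present, and unevenly so. A score is the mean log2 level of a list of marker genes on 1 array, with members of the module left out. The hair follicle score, over 8 genes, read 8.49, 11.08 and 8.20 in the 3 P2 arrays, 9.42, 5.66 and 10.09 at P5 and 11.05, 9.68 and 7.20 at P9. In the 18 arrays of the other ages it stayed between 4.72 and 5.47. All 8 genes met the rule and were among those set aside, so the higher window level was built into the score. An epidermis score over 12 genes was highest in 4 arrays, P5 replicate 2 (11.34), E18 replicate 1 (10.80), E20 replicate 1 (10.55) and P0 replicate 1 (10.05), and lay at 7.95 or below in the other 23. These 4 arrays stand apart, and results that rest on them are given with and without them.

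**Figure D1:**
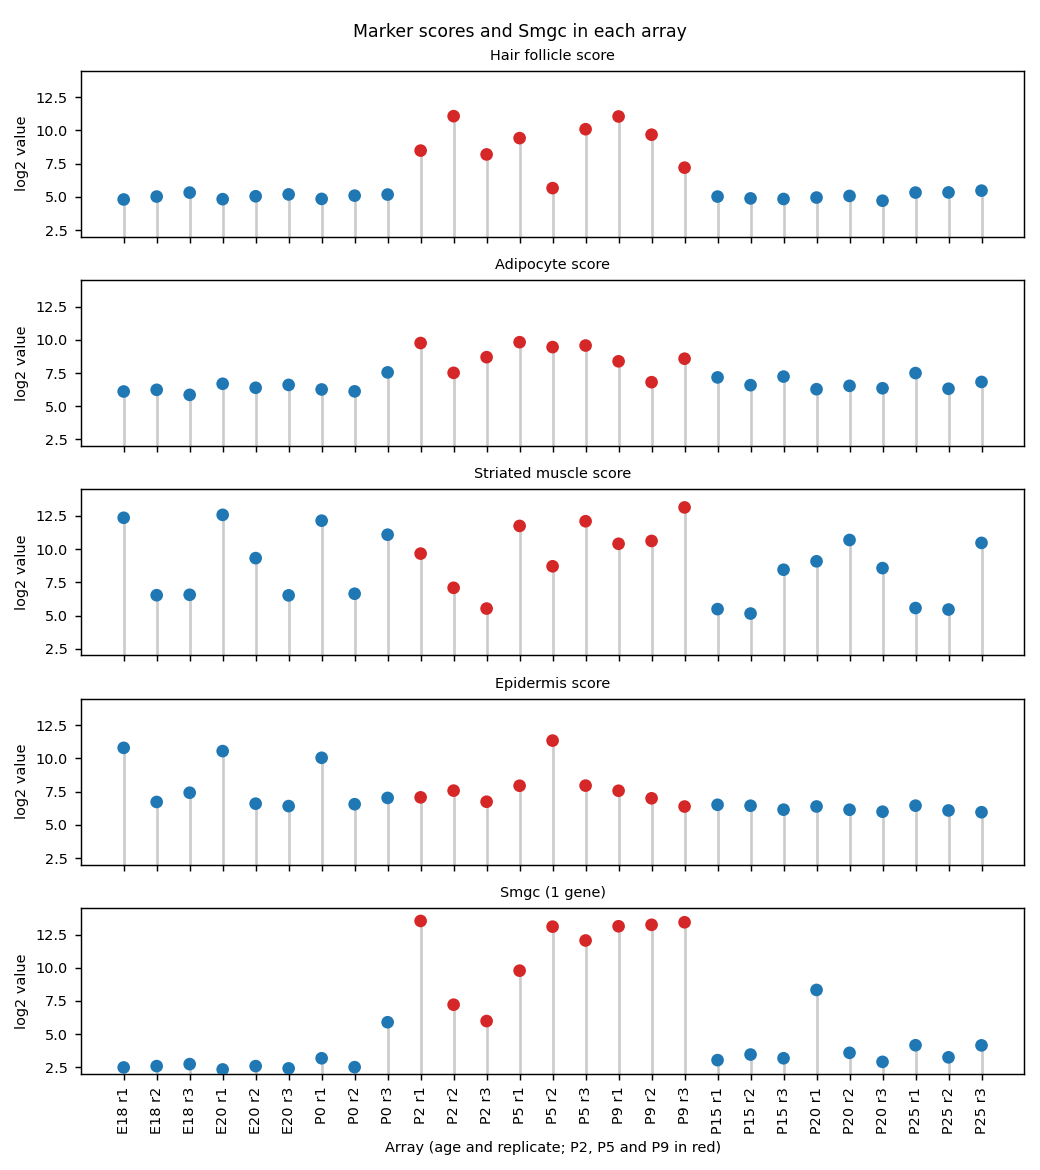
Marker scores and the level of Smgc in each of the 27 arrays (log2 units). Each point is 1 array, with P2, P5 and P9 in red and other ages in blue. The hair follicle score reached 11.08 in P2 replicate 2 but 5.66 in P5 replicate 2, where the epidermis score was 11.34.

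Promoters of 4 members are shown here, from RefSeq on the GRCr8 build, as 1 example each from the skin genes (Sprr1a, the highest rise), the gland-protein set (Glal), the lipid set (Cidec) and the members lower at P25 than at P15 (Cyp2f4). Each runs 5′ to 3′ over 300 bases on the gene's strand, and most of them lie before the annotated start. Capitals mark matches, on either strand, to a TATA box (TATAAA), an AP-1 site (TGANTCA), an NF-Y box (CCAAT) or an SP/KLF box (GGGCGG).
Sprr1a, chr2:180752576-180752875, minus strand: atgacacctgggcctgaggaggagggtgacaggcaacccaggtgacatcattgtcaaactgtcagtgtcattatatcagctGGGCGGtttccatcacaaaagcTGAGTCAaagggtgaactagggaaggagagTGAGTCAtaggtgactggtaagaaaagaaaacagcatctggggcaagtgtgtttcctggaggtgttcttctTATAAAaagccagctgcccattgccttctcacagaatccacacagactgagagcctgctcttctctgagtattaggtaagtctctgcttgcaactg
Glal, chr4:167662676-167662975, minus strand: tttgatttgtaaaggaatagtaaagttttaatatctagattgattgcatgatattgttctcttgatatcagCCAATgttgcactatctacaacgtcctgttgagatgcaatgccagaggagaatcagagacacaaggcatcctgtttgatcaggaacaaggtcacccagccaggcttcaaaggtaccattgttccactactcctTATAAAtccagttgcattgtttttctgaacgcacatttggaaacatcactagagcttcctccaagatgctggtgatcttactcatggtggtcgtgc
Cidec, chr4:148137066-148137365, minus strand: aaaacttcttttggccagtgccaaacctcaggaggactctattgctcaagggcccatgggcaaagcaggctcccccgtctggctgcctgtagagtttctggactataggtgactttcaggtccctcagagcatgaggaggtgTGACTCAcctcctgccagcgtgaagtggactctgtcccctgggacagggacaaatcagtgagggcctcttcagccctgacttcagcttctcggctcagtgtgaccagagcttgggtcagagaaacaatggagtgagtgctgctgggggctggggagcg
Cyp2f4, chr1:91543518-91543817, plus strand: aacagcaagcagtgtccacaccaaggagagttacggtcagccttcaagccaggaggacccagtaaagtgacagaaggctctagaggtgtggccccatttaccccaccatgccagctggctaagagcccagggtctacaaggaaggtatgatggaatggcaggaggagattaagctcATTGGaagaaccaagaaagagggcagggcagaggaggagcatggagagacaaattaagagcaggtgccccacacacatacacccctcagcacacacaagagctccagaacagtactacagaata
The Sprr1a promoter held 2 AP-1 matches that began 147 and 117 bases before the start and a TATA box at 46 bases. Glal also had a TATA box at 46 bases, and an NF-Y match at 179. Cidec had 1 AP-1 match at 108 bases and Cyp2f4 an NF-Y match at 74 bases on the opposite strand. Across the module, 86 members had a promoter in the reference table. AP-1 letters stood in 12 of them (14%), against 7.3% of 27457 promoters. A TATA box stood in 16 (18.6%, against 14.3%), NF-Y letters in 24 (27.9%, against 37.7%) and SP/KLF letters in 35 (40.7%, against 34.9%). LEF/TCF letters (CTTTGAT) stood in 1 member promoter (1.2%, against 3.6%), and a direct repeat of AGGTCA spaced by 1 base, the PPAR/RXR motif, in 0 (0.0%, against 0.1%). These are letter matches in a short window and were not tested.

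Rises ran from 1.00 to 4.98 log2 units with a median of 1.30, and 17 members had a rise of at least 2 units. The age with the highest mean was P5 for 65 members, P9 for 28 and P2 for 19. The remaining 2 members, Mamstr and Abca1, had their highest age mean at P15. Levels after the window were within 1 unit of those before it for 90 members. They ended at least 1 unit higher for 9 and at least 1 unit lower for 15. Oprpn and Obp3 ended farthest above their early level (3.41 and 3.26 units), while Myh8 and Aqp3 ended farthest below (-4.07 and -2.37). At the threshold, Hps3 and Agtr1a were the last members inside, with rises of 1.002 and 1.003, and Acta2 and C15h8orf58 were the first genes outside, at 0.992 and 0.991.

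The module did not move as a block. The pooled standard deviation of arrays within an age had a median of 1.11 log2 units over the members, against 0.48 over all named genes, and 84 members lay above the 90th percentile of all genes (0.85). Between the lowest and the highest of the 9 arrays from P2 to P9 the members spanned a median of 4.32 units, against 1.47 for all genes, and for 113 of the 114 members that span exceeded the rise. In no member did all 9 of these arrays lie above the 18 others, a pattern found in 0.0141% of all named genes, and this count uses the same difference as the selection. The median member had 3 arrays above all 18 others, and 76 members had at most 4. Cyria, a Rac1-binding regulator of the actin cytoskeleton, came nearest with 8. Its 1 exception was P5 replicate 2, at 3.85, below the highest outside value of 5.14. The highest of the 9 arrays was P5 replicate 2 for 30 members, P2 replicate 1 for 18, P5 replicate 1 and P9 replicate 3 for 15 each and P9 replicate 1 for 13. Outside the window, the highest array was E18 replicate 1 for 31 members and E20 replicate 1 for 17. With each array left out in turn, 52 members kept both differences every time and 62 lost one at least once. Without E18, E20 and P0 replicate 1 and P5 replicate 2, 108 of the 114 still met the rule, in a list of 228.

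**Figure D2:**
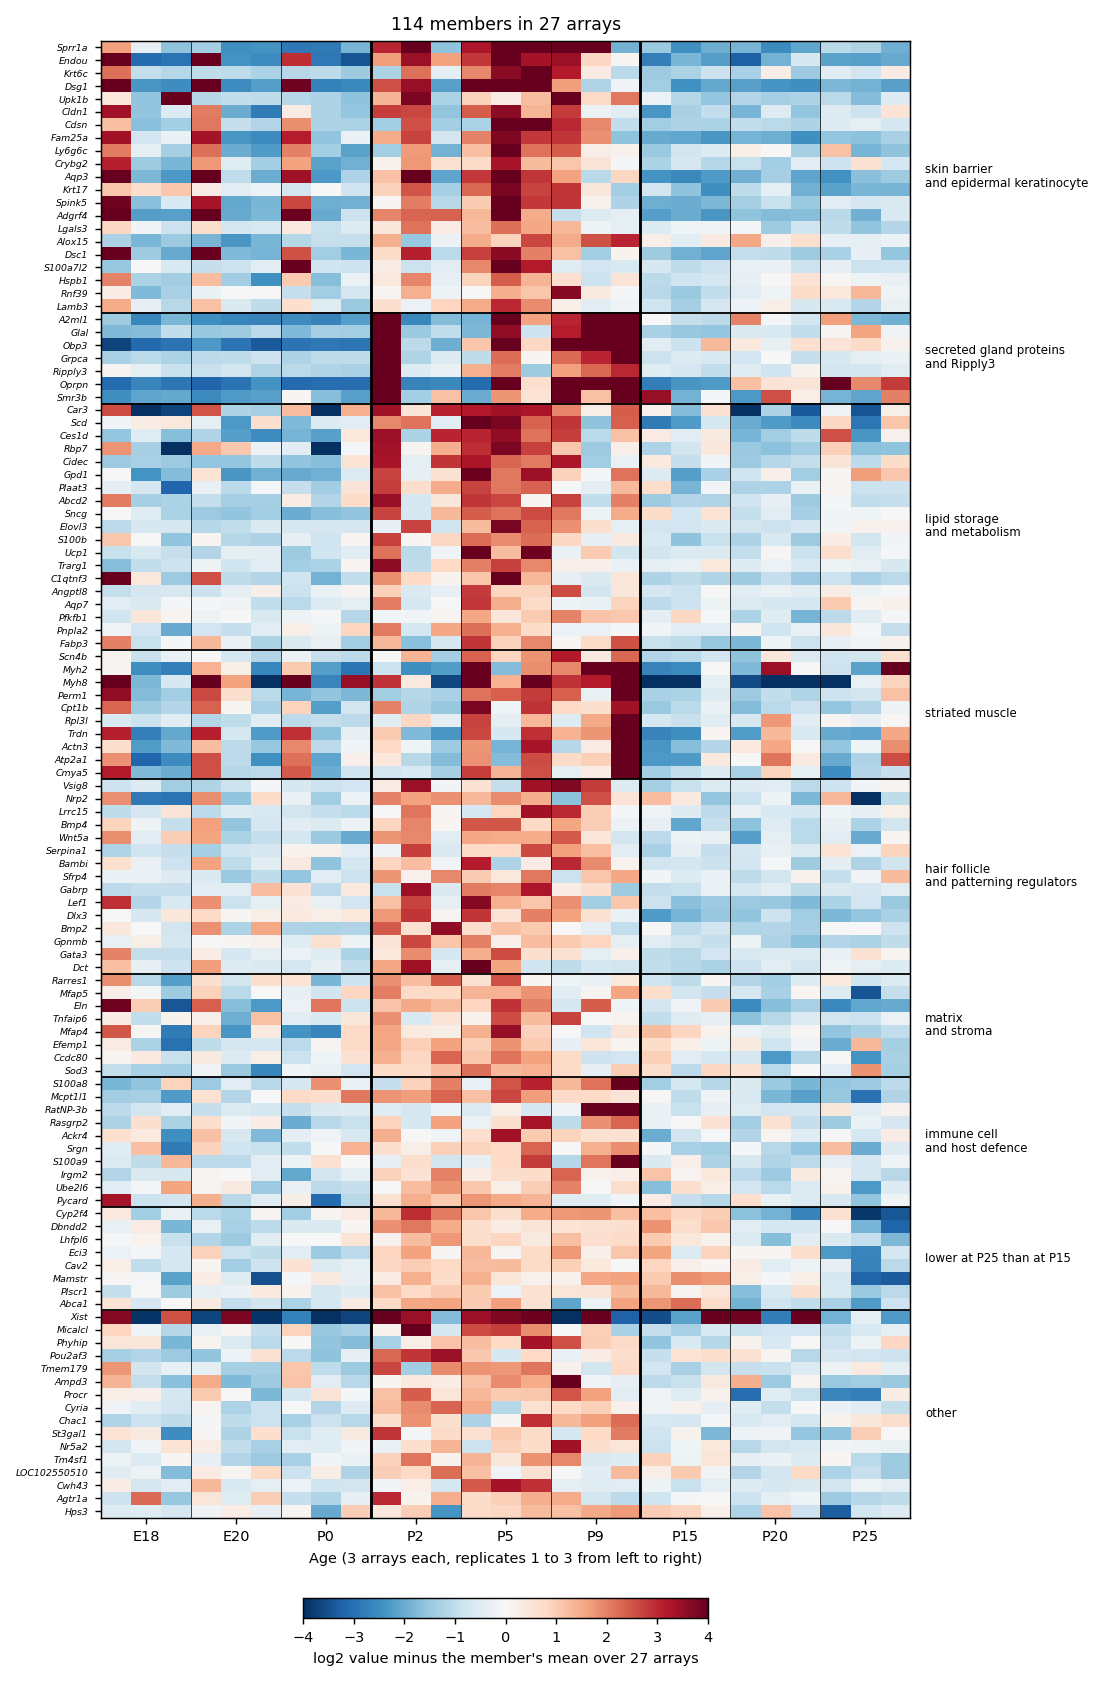
Levels of the 114 members (rows) in 27 arrays (columns, 3 per age), as log2 value minus the member's own mean over all arrays. Red is above and blue below that mean. Rows are grouped by known role, except the 8 members lower at P25 than at P15 and a group of other genes. Group means of skin genes are highest in P5 replicate 2 (3.73), P5 replicate 3 (2.67) and E18 replicate 1 (2.43). The set of gland proteins and Ripply3 is red in P2 replicate 1, P5 replicate 2 and the 3 P9 arrays. Group means of muscle genes are highest in P9 replicate 3 (4.48), P5 replicate 1 (2.95) and P5 replicate 3 (2.68).

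Other probe sets of the same genes, which the rule did not use, were few: 26 members had 40 of them. Both differences were above 0 in 30 of the 40 and reached 1 unit in 12, from 9 genes, with a median rise of 0.50. Obp3, Car3, Cldn1, Xist and Krt6c each had further probe sets with rises between 1.65 and 2.83, Krt6c in 1 of 2. The further probe sets of Cav2, Nr5a2, St3gal1 and Trdn all stayed below 1. So did those of other genes described below: Gpd1 (0.25), Spink5 (0.42 and 0.6), Abca1 (0.39 to 0.95) and Adgrf4 (0.05). Eln (0.1), Bmp2 (-0.15) and Lhfpl6 (-0.36) were further such genes.

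Skin barrier genes formed the largest group by role, with 21 members, and 18 of them had their highest age mean at P5. Members were put in role groups with their values in view, so the groups are descriptions. Sprr1a, a small proline-rich precursor of the cornified envelope, had the highest rise of the module. Its 3 arrays read 8.99, 11.60 and 4.34 at P2, 9.19, 11.79 and 12.03 at P5 and 11.44, 10.72 and 4.06 at P9. Before the window it ran from 3.07 to 7.59, and after it from 3.40 to 4.86. So 7 arrays lay above every outside array, while P2 replicate 3 and P9 replicate 3 sat at the outside level. The rise was 4.98 units, or 31.5-fold between geometric means. Krt6c, a keratin of the stress-inducible keratin 6 family, followed Sprr1a in part. It read 4.17, 7.64 and 5.05 at P2, 7.35, 9.05 and 10.53 at P5 and 8.61, 5.77 and 4.36 at P9, and its probe set is of a type that can match related transcripts.

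Desmosome and desquamation genes had another pattern, with 3 high arrays before the window. Dsg1, the desmosomal cadherin of the upper epidermis, read 11.59, 10.50 and 9.20 in replicate 1 of E18, E20 and P0, and 2.60 to 3.11 in replicates 2 and 3 of those ages. From P2 to P9 it ran from 3.14 to 10.77 with the top in P5 replicate 2, and from P15 to P25 it ran from 2.84 to 3.93. No window array exceeded E18 replicate 1. Spink5, a protease inhibitor of the skin barrier, read 9.89, 9.31 and 8.68 in the same 3 early arrays and 10.62 in P5 replicate 2. Endou, Dsc1 (a second desmosomal cadherin), Aqp3 (a water and glycerol channel of basal keratinocytes), Fam25a and Adgrf4 had their 3 highest arrays in E18 replicate 1, E20 replicate 1 and P5 replicate 2. The epidermis score was above 10 in each of these arrays, and its part in the rises was not tested. Cdsn, the corneodesmosin of the cornified layer, differed in that P5 replicate 3 was its highest array.

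The fit that asked whether members moved with marker scores used differences between arrays of the same age. The rule used age means, but a single high array can lift both a mean and a slope. Spink5, Adgrf4 and Dsc1 did not meet the rule without P5 replicate 2, nor did Trdn and Atp2a1 without P9 replicate 3. Members also spread more within ages than all genes (median 1.11 against 0.48). Shares called with a score, here and below, are therefore descriptions and not independent of the selection. With the epidermis score added to the hair follicle, adipocyte and striated muscle scores, 15 members were called higher where the epidermis score was higher, or 13.2% of members, against 0.509% of the 31042 probe sets tested. None was called in the other direction (0.0322% of probe sets), with 7 at an unadjusted p under 0.05. Endou had the steepest slope at 1.66 ± 0.19 log2 units per unit of score (SE, adjusted p = 5.46e-05), then Dsg1 at 1.64 ± 0.20 (adjusted p = 0.000131), Spink5 at 1.4 ± 0.09 (adjusted p = 1.73e-07) and Aqp3 at 1.32 ± 0.18 (adjusted p = 0.000802). Sprr1a and Krt6c were not among the 15. These calls rest on the 4 arrays with the high score. Without them, 0 of the 15 were called, and the slopes of Endou, Ampd3, C1qtnf3, Cdsn, Crybg2 and Lgals3 turned negative (Endou -1.31, adjusted p = 0.898). The count was 9 without P5 replicate 2 alone and 8 without P9 replicate 1. Of the 31 measured cornification genes, 7 were members (Sprr1a, Dsc1, Dsg1, Cdsn, Alox15, S100a8 and S100a9), against 114 of all 14217 named genes. The median rise was 0.36 over the 31 genes and -0.01 over the 14 measured epidermis markers. Dsc1, Dsg1 and Cdsn were called with the epidermis score. Sprr1a (slope 0.89), Alox15 (-0.2), S100a8 (-0.39) and S100a9 (-0.44) were not. S100a8 and S100a9 are grouped below with immune genes. With the epidermis score, 18 of the 31 were called higher. Of the 12 score genes, 10 are also in that list, so the list's count is not independent of the score.

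Genes of secreted gland proteins, placed with Ripply3 in a gland-protein set, differed widely among arrays of 1 age. Members were put in the set with their values in view, and no role is given here for Glal. This set of 7 members held A2ml1, a protease inhibitor of epithelia; Obp3, a lipocalin that binds odorants; Grpca, a glutamine- and glutamate-rich protein of rat submandibular gland; Oprpn, the opiorphin precursor; Smr3b, of the submaxillary gland androgen-regulated family; Glal; and the transcriptional corepressor Ripply3. A2ml1 read 13.05, 2.93 and 3.78 at P2, 3.65, 11.29 and 7.10 at P5 and 8.56, 10.62 and 12.39 at P9. Its early arrays ran from 2.84 to 4.08 and its late arrays from 3.57 to 7.49. Glal read 12.78, 5.02 and 5.52 at P2, 4.70, 10.06 and 5.67 at P5 and 9.65, 10.73 and 12.30 at P9, against 4.74 to 5.52 early and 4.97 to 8.09 late. Both were high in the same 5 arrays: P2 replicate 1, P5 replicate 2 and the 3 P9 arrays.

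Oprpn read 12.58, 2.76 and 2.86 at P2, 2.35, 10.47 and 6.1 at P5 and 10.72, 10.82 and 12.16 at P9. It ran from 2.27 to 3.04 before the window. After it, it read 2.67, 3.10 and 3.18 at P15, 6.62, 5.94 and 5.95 at P20 and 10.19, 7.34 and 8.24 at P25, a difference of 5.61 ± 1.80 between P25 and P15 that missed the threshold (adjusted p = 0.0523). Obp3 had the same 5 high arrays, at 11.06 to 13.39, and its other 4 window arrays lay between 5.01 and 8.10. Grpca and Ripply3 were also highest in P2 replicate 1, at 12.00 and 8.35. The Grpca probe set, too, is of a type that can match related transcripts. Smr3b, which neighbours Oprpn on chromosome 14 with no annotated gene between them, was high in P2 replicate 1 (10.93), P9 replicate 1 (10.23) and P9 replicate 3 (9.36), but also reached 8.33 in P15 replicate 1. All 7 had their highest age mean at P9.

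Smgc, the mucin gene set aside by the rule, read 13.52, 7.22 and 5.99 at P2, 9.78, 13.09 and 12.05 at P5 and 13.12, 13.23 and 13.42 at P9. Like the set, it was lower in P2 replicates 2 and 3 than in P2 replicate 1, but it was high in P5 replicate 3, where A2ml1 read 7.10. The hair follicle score differed from this order, being higher in P2 replicate 2 than in P2 replicate 1 and lowest of the 9 window arrays in P5 replicate 2. No member of the gland-protein set was called with any of the 4 scores. Slopes of the set on the hair follicle score were all negative, in log2 units per unit of score. They were -1.1 ± 0.39 for A2ml1, -0.9 ± 0.28 for Glal, -0.9 ± 0.39 for Oprpn and -0.72 ± 0.3 for Obp3 (SE). Grpca had -0.62 ± 0.2, Ripply3 -0.5 ± 0.19 and Smr3b -0.34 ± 0.38. All but Smr3b were at an unadjusted p under 0.05, with limma adjusted p from 0.554 to 0.784. Genes of this set share high arrays, so these slopes are not separate results.

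**Figure D3:**
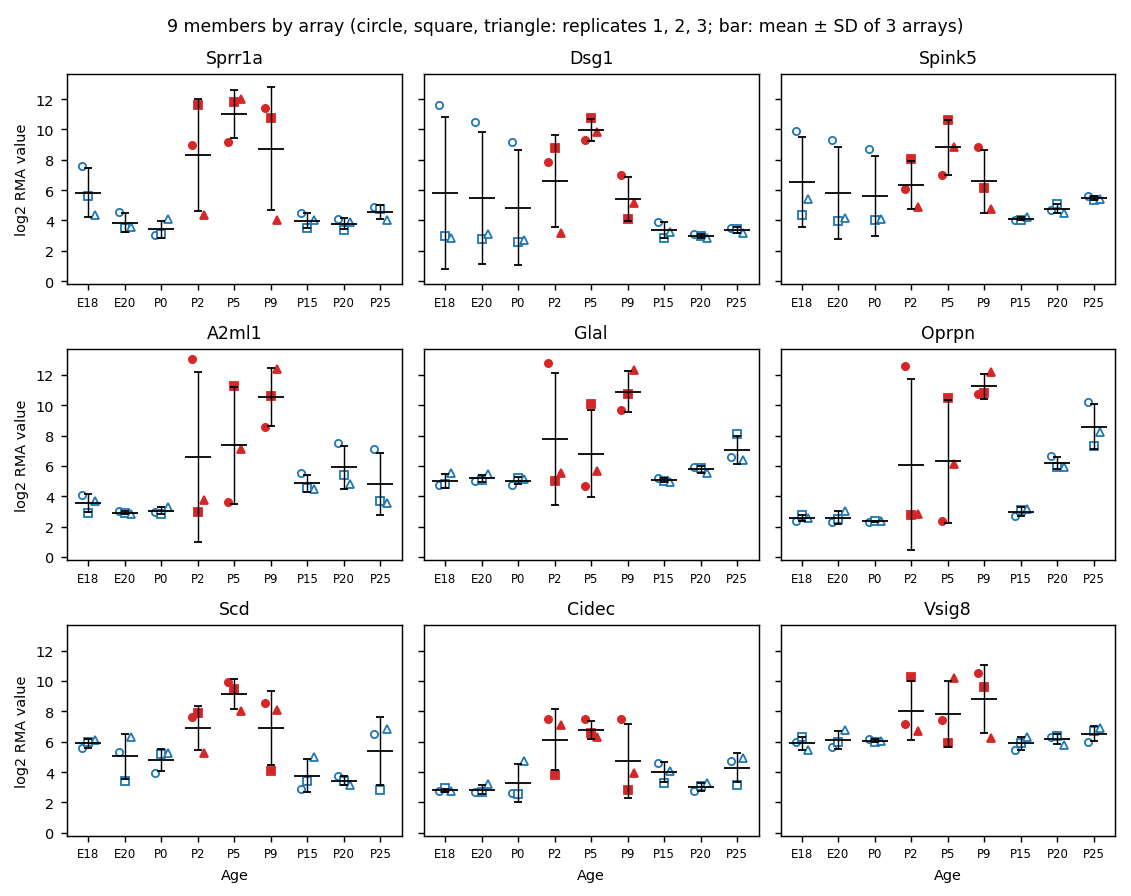
Levels of 9 members by age (log2 RMA values, 1 point per array; circle, square and triangle are replicates 1, 2 and 3; bars are the mean ± SD of 3 arrays; P2 to P9 filled red). Dsg1 and Spink5 have 1 high array at each early age, A2ml1, Glal and Oprpn have 1 high array at P2 (13.05, 12.78 and 12.58) and 3 at P9, and Cidec is high in 2 of 3 P2 arrays.

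Lipid genes were 19 members, and 18 of them had their highest age mean at P5. Scd, the desaturase that makes monounsaturated fatty acids, read 7.61, 7.88 and 5.24 at P2, 9.92, 9.47 and 8.05 at P5 and 8.56, 4.08 and 8.08 at P9. Its early arrays ran from 3.41 to 6.34 and its late arrays from 2.81 to 6.81. Cidec, a lipid droplet protein of fat cells, read 7.51, 3.81 and 7.07 at P2, 7.47, 6.55 and 6.29 at P5 and 7.49, 2.81 and 3.91 at P9, against 2.52 to 4.75 early and 2.75 to 4.93 late. Scd was above every outside array in 7 of the 9 and Cidec in 6, and P9 replicate 2 lay inside the outside range for both. Car3, a carbonic anhydrase abundant in fat and muscle, stood between 9.10 and 12.24 from P2 to P9, but reached 11.45 and 11.37 in E18 and E20 replicate 1.

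Gpd1, which supplies glycerol phosphate for triglyceride, averaged 7.98 ± 1.56 at P2, 10.13 ± 0.93 at P5 and 8.0 ± 1.13 at P9 (SD, n = 3 each). Plaat3, an adipocyte phospholipase, averaged 9.09 ± 1.04, 9.82 ± 0.30 and 7.76 ± 0.87 at the same ages. Rbp7, a retinol-binding protein of the fatty acid-binding family, ran from 5.83 to 11.04 in the window with a rise of 2.24. Ces1d, a triglyceride hydrolase, had a rise of 2.27, and Pnpla2, the first lipase of triglyceride breakdown, had a rise of 1.04. The glycerol channel Aqp7, the lipoprotein lipase regulator Angptl8 and the fatty acid carrier Fabp3 had rises from 1.04 to 1.07. Ucp1, the uncoupling protein of brown fat, read 7.60, 4.36 and 5.30 at P2, 9.76, 6.66 and 9.33 at P5 and 5.17, 6.48 and 4.70 at P9. Elovl3, a fatty acid elongase of brown fat and sebaceous glands, was highest in P5 replicate 2 (7.96) and P2 replicate 2 (6.86), arrays where Ucp1 was at 6.66 and 4.36.

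Of the 38 measured genes of triglyceride storage and lipolysis, 11 met both differences, 7 as members and 4 set aside by name. Over all 14217 named genes, 137 met both. The lists were chosen with earlier results of these data known, so their counts are descriptions. The median rise of the list was 0.39. Lists of neighbouring pathways held fewer: 2 of 26 genes of fatty acid synthesis and elongation (Scd and Elovl3), 3 of 29 of fatty acid oxidation (Cpt1b, Ucp1 and Fabp3), 1 of 33 of glycolysis (Pfkfb1) and 0 of 21 of cholesterol synthesis. The adipocyte score, over 7 genes, lay between 6.81 and 9.82 in the 9 window arrays. It lay between 5.86 and 7.55 before and between 6.28 and 7.49 after. Of its 7 genes, 6 met both differences and were set aside, so the higher window level was largely built into it. In the fit with the 3 scores together, 2 members were called higher with the adipocyte score (1.75%, against 0.0226% of probe sets). They were Ces1d, with a slope of 2.18 ± 0.31 (adjusted p = 0.0115), and Cidec, with 1.81 ± 0.29 (adjusted p = 0.0301). None was called lower (0% of probe sets, and 3 members at an unadjusted p under 0.05). Both calls were lost with the replicate number as a block (0 calls), and also without P0 replicate 3, P2 replicate 2, P9 replicate 1 or P9 replicate 2, and that of Cidec was lost in 21 of the 27 fits that left out 1 array.

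Striated muscle genes, 10 members, were uneven across arrays before, within and after the window. Atp2a1, the calcium pump of fast muscle, read 7.54, 5.99 and 5.36 at P2, 8.92, 5.37 and 9.70 at P5 and 7.88, 8.05 and 11.98 at P9. Early arrays ran from 3.94 to 9.69 and late arrays from 4.82 to 9.71, so the windows overlapped widely. Myh8, the perinatal myosin heavy chain, lay between 5.42 and 13.86 in the window and between 3.64 and 13.69 before it, against 3.21 to 9.94 after. Myh2, a fast myosin encoded close to Myh8 on chromosome 10, was at 9.91 or higher in P5 replicate 1, P9 replicate 2 and P9 replicate 3, and also in P25 replicate 3. The striated muscle score, over 6 genes, ranged from 5.53 to 13.14 in the window, from 6.52 to 12.58 before and from 5.15 to 10.69 after.

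With the muscle score, 8 members were called higher (7.02%, against 0.457% of probe sets) and none lower (0.0161%, and 2 members at an unadjusted p under 0.05). The steepest were Myh8 at 1.19 ± 0.13 log2 units per unit of score (adjusted p = 7.71e-05), Trdn, the triadin of the calcium release complex, at 0.88 ± 0.07 (adjusted p = 1.35e-06), Atp2a1 at 0.86 ± 0.07 (adjusted p = 2.31e-07) and Myh2 at 0.79 ± 0.16 (adjusted p = 0.0238). Actn3, Cmya5, Cpt1b, the carnitine acyltransferase of muscle mitochondria, and Car3 were the others. The count was 5 without E18 replicate 1, 14 without P9 replicate 1 and 3 without the 4 arrays of high epidermis score. Shares of all probe sets in these fits were not kept.

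**Figure D4:**
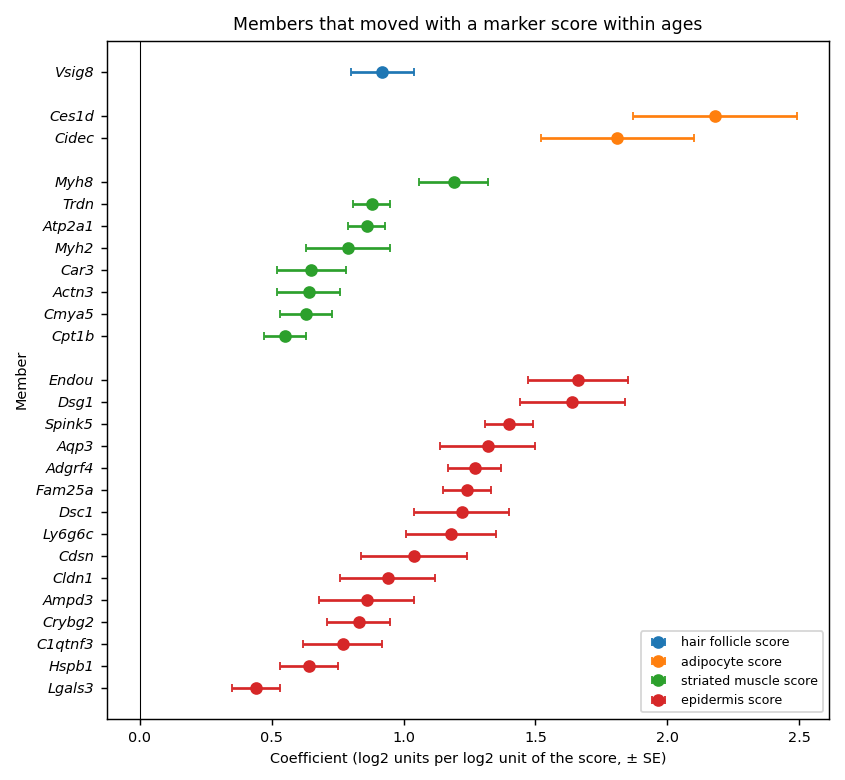
Slopes of the members called with a marker score (log2 units per log2 unit of score, ± SE, from differences between arrays of the same age). There is 1 member for the hair follicle score, 2 for the adipocyte score, 8 for the striated muscle score and 15 for the epidermis score, and all slopes are positive.

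Regulators of hair and skin patterning were put in 1 group of 15 members with other genes, among them Vsig8, Dct, Serpina1, Gabrp and Gpnmb. Vsig8, an immunoglobulin-domain protein found in hair, read 7.14, 10.26 and 6.69 at P2, 7.40, 5.89 and 10.21 at P5 and 10.53, 9.60 and 6.27 at P9, against 5.43 to 6.74 early and 5.47 to 6.92 late. Its 4 highest arrays, P9 replicate 1, P2 replicate 2, P5 replicate 3 and P9 replicate 2, were also the 4 with the highest hair follicle score. It was the 1 member called with that score (0.877%, against 0.0419% of probe sets), at 0.92 ± 0.12 (adjusted p = 0.00109). None was called lower (0.00322%, and 12 members at an unadjusted p under 0.05). Dlx3, a homeobox factor of hair and epidermis, had a slope of 0.50 ± 0.09 that missed the threshold (adjusted p = 0.0623). Its levels were 9.45, 10.55 and 7.82 at P2, 10.57, 8.24 and 9.72 at P5 and 9.32, 8.30 and 7.45 at P9, and 5.43 to 6.87 after the window. Without P5 replicate 2, 5 members were called with the hair follicle score, and the share of all probe sets in that fit was not kept.

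Ligands and modulators of BMP signalling did not share 1 array pattern. Bmp4, a ligand of skin and hair patterning, read 6.5, 7.59 and 5.70 at P2, 8.12, 8.12 and 6.44 at P5 and 7.20, 6.62 and 5.41 at P9. Bmp2, a second ligand, read 6.62, 4.79 and 7.73 at P2, 4.85, 5.37 and 5.24 at P5 and 4.17, 3.80 and 3.18 at P9. The pseudoreceptor Bambi was highest in P5 replicate 1 (8.70) and P9 replicate 1 (8.59) and lowest of the window in P5 replicate 2 (4.35). These were the 3 members among 42 measured genes of BMP and TGF-beta signalling, whose median rise was -0.02. The transcription factors Lef1 and Gata3 were high in E18 replicate 1 (9.06 and 8.82), and their top window arrays differed: P5 replicate 1 for Lef1 (9.77) and P5 replicate 2 for Gata3 (9.44). With Dlx3, Bmp2 and Bmp4 they were the 5 members among 26 hair follicle regulators, whose median rise was 0.15. Of 15 measured hair follicle structural genes, 9 met both differences, but 8 of these were set aside by name and only Krt17, a keratin of skin appendages, was a member. Over all 14217 named genes, 137 met both differences and 114 were members. Dct, an enzyme of melanin synthesis, was high in P5 replicate 1 (9.09) and P2 replicate 2 (7.52). The other 5 melanocyte markers averaged 4.83 to 7.56 in the window, 4.34 to 5.08 before and 4.72 to 5.75 after, and their part in the Dct values was not tested.

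Immune and host defence genes were 10 members. S100a8 and S100a9, adjacent genes on chromosome 2 whose products pair as calprotectin, were both highest in P9 replicate 3 (9.17 and 9.66). RatNP-3b, a rat neutrophil defensin, read 3.93, 8.93 and 11.22 at P9 and lay between 3.39 and 4.31 at P2 and P5, between 3.02 and 3.61 before and between 3.18 and 4.51 after. It met the rule through those 2 P9 arrays. The 4 neutrophil markers that are not members averaged 5.30 to 6.87 in the window, against 4.97 to 5.93 outside it. Mcpt1l1, a mast cell protease gene, was 8.08, 7.98 and 9.42 at P0, against 5.9, 5.97 and 5.05 at E18. That difference of 2.85 ± 0.54 was the only call among members between P0 and E18 (adjusted p = 0.0255), or 0.877% of members, against 0.122% of probe sets called higher. None was called lower (0.0483%, and 3 members at an unadjusted p under 0.05). The call was lost without E18 replicate 3, P0 replicate 2 or P0 replicate 3. The P0 mean of Mcpt1l1 (8.49) was close to its window mean (8.79). The gene met the early difference through E18 (mean 5.64) and E20 (7.11), so the call partly restates the values that chose it. Mcpt1l1 stayed between 7.83 and 9.96 in the window, and the 10 measured mast cell markers, none of them a member, averaged 4.79 to 5.95 there and 4.62 to 6.22 before. No member came from the lists of 28 interferon-induced genes or 25 genes of IGF-binding proteins and insulin signalling, though Irgm2, Ube2l6 and Plscr1, members outside the first list, are also known to be induced by interferon.

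Matrix and stromal genes were 8 members with rises between 1.01 and 1.30. They included elastin (Eln), the microfibril proteins Mfap4 and Mfap5, the fibulin Efemp1 and extracellular superoxide dismutase (Sod3). Eln was higher in E18 replicate 1 (11.05) than in any window array, the highest of which was P5 replicate 2 (10.06). The other 14 measured fibroblast markers averaged 9.31 to 10.37 in the window, 9.04 to 10.08 before and 8.09 to 9.44 after.

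Within the window, single ages were compared as a description, since a member that is high at 1 of the 3 ages can meet the rule through that age alone. P5 against P2 gave 1 member called higher (0.877%, against 0.00644% of probe sets) and 0 lower (0%, and 3 members at an unadjusted p under 0.05). P9 against P5 gave 0 higher (0.0129%, and 5 members at an unadjusted p under 0.05) and 1 lower (0.877%, against 0.0161%). Both calls were Cwh43, which remodels lipid anchors of membrane proteins. It read 2.53, 2.92 and 1.96 at P2, 5.11, 6.01 and 5.58 at P5 and 2.31, 2.20 and 2.22 at P9. It met the rule through P5 alone, so both calls restate the values that chose it. The 3 P5 arrays lay above all others in the series, of which E20 replicate 1 was nearest at 3.98. Outside P5 it ran from 1.78 to 3.98, on arrays whose lowest value was 1.43. P9 against P2 gave no call in either direction (0.0161% of probe sets higher and 0.0161% lower), while 15 members were higher and 10 lower at an unadjusted p under 0.05. For comparisons with P9, age and the change from head sections to dissected gland cannot be told apart. Over all members, of which 65 had their highest mean at P5, the median difference was 0.85 for P5 against P2 (-0.06 over all probe sets) and -0.97 for P9 against P5 (0.09 over all).

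Pou2af3, a coactivator of a POU-domain factor, was highest at P2. It read 7.01, 7.57 and 8.17 at P2 and 4.08 to 5.79 at P5 and P9, against 3.12 to 5.34 before the window and 3.60 to 5.41 after. Xist, the RNA of the inactive X chromosome, ranged from 2.65 to 11.00. Arrays of E18, E20, P2, P9, P15 and P20 held both high and low values, whereas the 3 P5 arrays were all high and the 3 P0 arrays all low. Xist lay between 10.42 and 11.00 in 6 of the 9 window arrays, with P2 replicate 3, P9 replicate 1 and P9 replicate 3 between 2.88 and 5.25. Other ages gave 9.55 or higher in E18 replicates 1 and 3, E20 replicate 2, P15 replicate 3 and P20 replicates 1 and 3. Their remaining arrays read 6.64 or lower. Xist did not meet the rule without P9 replicate 2 or without P20 replicate 2. The labels do not give the sex of the animals, and its part in the Xist values was not tested.

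After the window, P25 was compared with P15. Here 8 members were lower (7.02%, against 4.23% of probe sets) and 0 higher (5.04% of probe sets, and 3 members at an unadjusted p under 0.05). The share called lower was not far from that of all probe sets and is not read as a trait of the module. These 8 members were grouped by this call and not by role. All 8 had a P15 mean above their window mean or less than 1 unit below it. They met the late difference through lower P20 or P25 values, so these calls partly restate the values that chose them. Mamstr, a coactivator of MEF2 factors, read 7.96, 5.40 and 5.28 at P25, against 9.66, 10.47 and 10.34 at P15 (-3.94 ± 0.79, adjusted p = 0.00442). Cyp2f4, a cytochrome P450, read 8.14, 3.66 and 4.09 at P25, against 8.73, 8.35 and 8.49 at P15 (-3.22 ± 0.79, adjusted p = 0.0153). Abca1, the cellular cholesterol exporter, read 4.92, 3.94 and 5.37 at P25, against 7.96, 8.45 and 6.94 at P15 (-3.04 ± 0.67, adjusted p = 0.00861). Dbndd2 read 7.46, 5.59 and 4.26 at P25, against 9.26, 8.15 and 8.54 at P15 (-2.88 ± 0.56, adjusted p = 0.00353). The P25 arrays lay below all P15 arrays in each of these 4 genes, though P25 replicate 1 stayed close to P15 in Cyp2f4.

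Eci3, an enoyl-CoA isomerase of fatty acid oxidation, fell by 2.51 ± 0.60 (adjusted p = 0.0143), and Cav2 (caveolin 2), Plscr1 (a lipid scramblase) and Lhfpl6 fell by 1.75, 1.69 and 1.68. All 8 calls were lost with only the P25 and P15 arrays in the fit, where 1 other member, Oprpn, was called higher (adjusted p = 0.0334). Cyp2f4 illustrates the course over age. It averaged 7.10 ± 0.88 at E18, 6.78 ± 0.76 at E20, 7.20 ± 0.95 at P0, 9.64 ± 0.80 at P2, 8.60 ± 0.42 at P5, 9.08 ± 0.31 at P9, 8.52 ± 0.19 at P15, 5.46 ± 0.53 at P20 and 5.30 ± 2.47 at P25 (SD, n = 3 each). Every array from P2 to P15 was above every array of E18, E20, P0 and P20, and P25 replicate 1 (8.14) was the nearest of the rest. None of the 8 was called with any of the 4 marker scores. The count was 3 without P15 replicate 1 and 5 without P15 replicate 3, P25 replicate 2 or P25 replicate 3.

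**Figure D5:**
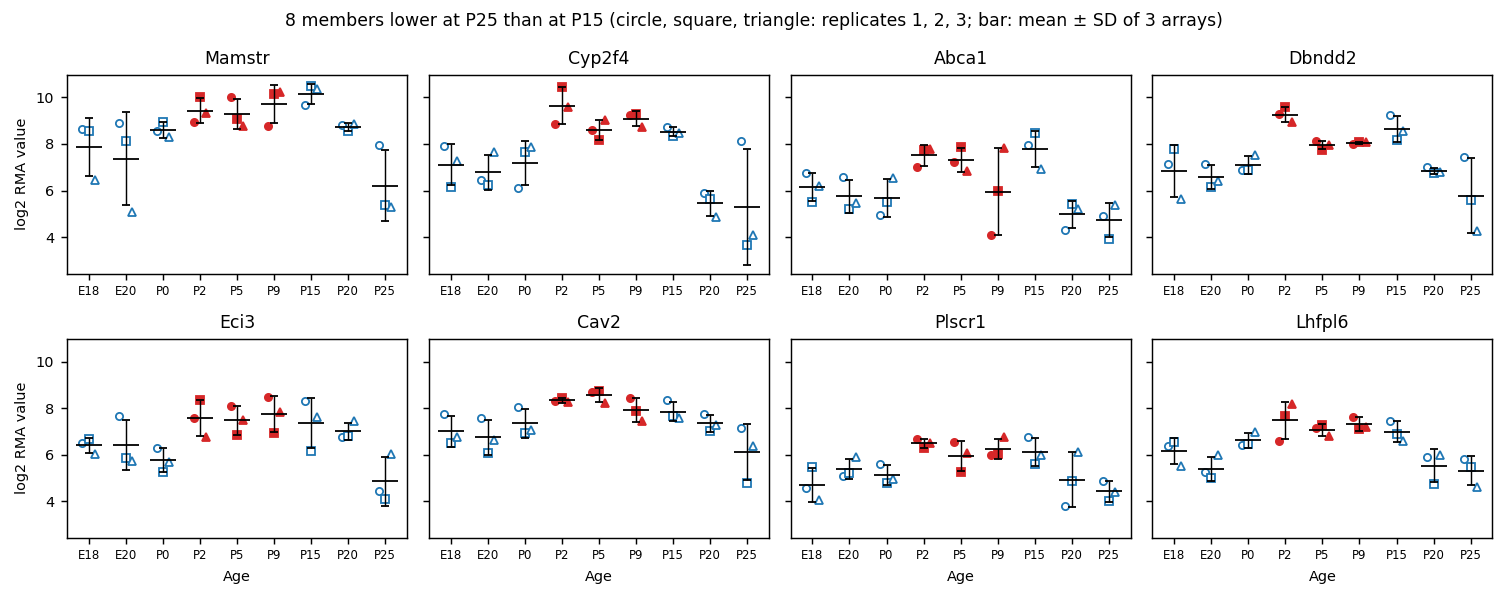
Levels of the 8 members that were lower at P25 than at P15, by age (log2 RMA values, 1 point per array; circle, square and triangle are replicates 1, 2 and 3; bars are the mean ± SD of 3 arrays; P2 to P9 filled red). Cyp2f4 stays between 8.16 and 10.46 from P2 to P15 and averages 5.46 at P20.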

How the data were processed

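The authors captured parotid acinar cells by laser, amplified the RNA and hybridised it to Affymetrix rat genome arrays, and deposited log2 RMA values for 27 arrays, 3 at each of 9 ages. Array medians lay between 5.91 and 6.13. RMA assumes like distributions on all arrays, and depth is limited by the number of arrays. Of 31099 rows, 57 array controls were left out and 31042 tested. Platform annotation gave 20826 probe sets 1 symbol, 436 several and 9780 none, and the 20826 stood for 14217 genes. No detection calls were used.

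Ages were compared with limma 3.58.1 in R 4.3.3 (1 coefficient per age, all arrays, empirical Bayes, two-sided, Benjamini-Hochberg over 31042 probe sets, threshold 0.05). Hair follicle, adipocyte and striated muscle scores entered together as covariates centred within age. The epidermis score and its alternatives were chosen after seeing the data. The script was tested on simulated data. Members and gene lists were chosen with earlier results of these data known. Genes were named by 6 criteria: the 20 largest rises, pathway list members, up to 4 calls per direction and contrast, up to 4 calls per score, genes at the threshold, and the extremes of the late minus early difference. Other genes named, among them Dct, Cyria, Pou2af3, Xist, RatNP-3b and the matrix genes, and the role groups, were chosen after their values were seen. Alternatives changed the normalisation, probe set choice, thresholds, covariates and arrays.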

Additional observations from a re-analysis of the deposited data

How the results depend on the processing

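The module held 114 genes and was sensitive to where its limits were set. It held 198 genes with a threshold of 0.8, 69 with 1.2, 53 with only probe sets above the median level, and 228 without E18, E20 and P0 replicate 1 and P5 replicate 2. With 1 array left out it held 97 to 160. For P5 against P2, the 1 call became 0 with bright probe sets only, 2 without the 4 arrays and 2 with 4 scores as covariates. With only the 2 ages in the fit, Cwh43 lost its call and Perm1 was called instead. The count was 1 to 3 with 1 array left out. For P9 against P5, the 1 call became 0 with bright probe sets only or with only the 2 ages in the fit, 2 with array weights or 3 scores, 11 with 4 scores and 4 without the 4 arrays, and 1 to 2 with 1 array left out. For P9 against P2, 0 calls became 1 with array weights or without the 4 arrays, 3 with 3 scores and 7 with 4 scores, and 0 to 5 with 1 array left out (5 without P2 replicate 1). For P0 against E18, the 1 call became 0 with quantile normalisation, with Xist minus Eif2s3y as a covariate, with only the 2 ages or without the 4 arrays, and 0 to 1 with 1 array left out. For P25 against P15, all 8 calls were lost with only the 2 ages in the fit, where the 1 call was Oprpn in the other direction. The count was 3 to 10 with 1 array left out. The cause of these changes was not tested. For alternative fits, here and elsewhere in the text, the share of all probe sets called was not kept. Their counts therefore do not show whether a change was particular to the members.

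With the hair follicle score, the 1 call became 2 after median centring, with quantile normalisation or with the score alone, 0 with only P2, P5 and P9 in the fit, 5 with the epidermis score added and 8 without the 4 arrays, and 1 to 5 with 1 array left out (4 without P2 replicate 1, and 3 without P5 replicate 1 or P5 replicate 3). With the adipocyte score, 2 calls became 1 with quantile normalisation, with Xist minus Eif2s3y or without the 4 arrays, 0 with bright probe sets only or with only P2, P5 and P9, and 0 to 3 with 1 array left out. With the striated muscle score, 8 calls became 5 with bright probe sets only, 0 with only P2, P5 and P9 and 3 without the 4 arrays, and 5 to 14 with 1 array left out. In the fit of P2, P5 and P9 alone, the Car3 slope on that score turned to -0.12 (limma adjusted p = 0.671). With the epidermis score, 15 calls became 0 without the 4 arrays and 8 to 16 with 1 array left out. Without the 4 arrays the slope turned to -1.31 for Endou, -1.21 for Ampd3, -0.64 for C1qtnf3, -0.52 for Cdsn, -0.16 for Lgals3 and -0.09 for Crybg2. With 1 array left out the same slopes stayed positive, at 1.50 to 1.87 for Endou, 0.50 to 0.95 for Ampd3, 0.64 to 0.90 for C1qtnf3, 0.76 to 1.19 for Cdsn, 0.35 to 0.49 for Lgals3 and 0.72 to 0.94 for Crybg2. The cause of these changes was not tested.

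The methods do not say whether a replicate number marks a shared litter or day across ages. Deviations of same-numbered arrays correlated at -0.108 to 0.459 (median 0.014), against -0.279 to 0.141 for other numbers, and 16 of 27 arrays correlated best with their own number. With the replicate number as a block, calls were 1, 1, 0, 1 and 8 for the contrasts in the order above, 1 for the hair follicle score, 0 for the adipocyte score, 6 for the striated muscle score and 11 for the epidermis score.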
